A study of Mus musculus with 6 samples.

Results

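The fetal-to-adult switch of haematopoietic stem cells was examined through 9 genes, namely *Lin28b*, *Lin28a*, *Igf2bp1*, *Igf2bp2*, *Igf2bp3*, *Hmga2*, *Hmga1*, *Sox17* and *Arid3a*. Every array probe annotated with one of these gene names was taken, which gave 22 probes among 56605 on the array and 9 genes among 37074 gene names. Bone marrow LSK cells, which lack lineage markers and carry Sca-1 and c-Kit, include the haematopoietic stem cells and early progenitors and were sorted from C57BL/6 mice at postnatal days 6 to 8. The control group was Atg5w/w;Vav and the other group Atg5f/f;Vav, with 3 arrays each. Both carried the Vav-iCre transgene, which acts across haematopoietic tissue from fetal life and, in Atg5f/f;Vav, removes *Atg5*, a gene required for autophagosome formation. The sources used here do not say whether a sample was 1 mouse or a pool, so n and SD refer to arrays, and p-values measure only the spread between these samples.

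Fetal and neonatal stem cells divide more than adult ones and yield a different mix of lineages, and a small group of RNA-binding and chromatin proteins is known to hold the fetal programme. *Lin28a* and *Lin28b* encode RNA-binding proteins that block the maturation of let-7 microRNAs. Let-7 in turn represses *Hmga2*, which encodes a DNA-bending chromatin protein, and the *Igf2bp* genes, which encode proteins that bind and stabilise mRNA. *Arid3a* is a transcription factor gene linked to fetal-type B cell development, and *Sox17* a transcription factor gene that fetal and neonatal stem cells depend on.

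The let-7 sequences are shown because they define the axis that joins most of these genes. Of 10 mature guide-strand let-7 entries in RefSeq (GRCm38.p6), 9 share the seed GAGGUAG, bases 2 to 8 of the miRNA. These bases are in capitals here, and let-7j, with GAGGUAU, is the exception.
let-7a-5p: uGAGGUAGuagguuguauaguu
let-7c-5p: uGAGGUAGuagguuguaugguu
let-7g-5p: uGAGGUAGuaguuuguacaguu
let-7j: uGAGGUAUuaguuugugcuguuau

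The microRNAs themselves were not measured here. The match to the shared seed on a target reads CTACCTC, and 1 of the 22 probes holds it, the *Hmga2* probe that starts at base 3708 of the transcript. The match covers bases 3752 to 3758 of that transcript and is in capitals in the 29 bases shown, which are bases 32 to 60 of the probe.
Hmga2: tcaaaacacactaCTACCTCttaagtccc

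Over all 56605 probes of 60 bases, 0.353% hold CTACCTC and 0.228% hold its reverse complement, which no probe of the 9 genes holds. A pair of probes inside coding sequence is shown in full, since each stands beside a brighter probe near the end of the same transcript. The *Lin28b* probe starts at base 376, where the cold-shock domain is encoded, and the *Igf2bp3* probe at base 1304, where a KH domain is encoded. Each is free of stop codons in 1 of 3 frames.
Lin28b: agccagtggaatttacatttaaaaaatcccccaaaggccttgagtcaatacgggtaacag
Igf2bp3: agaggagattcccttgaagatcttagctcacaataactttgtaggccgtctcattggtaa

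Levels are given as log2 signal relative to the 75th percentile of the array, so that 0 is the brightness which 75% of non-control spots do not exceed. A level below 0 can still be well above background, and only the same probe is compared between arrays. Differences are Atg5f/f;Vav minus control. Tests are limma's, with Benjamini-Hochberg adjustment over the 32074 probes for which 3 or more of the 6 arrays were well above background, and a probe is called at an adjusted p under 0.05. All arrays lay on 1 slide, scanned once, with control in slide row 1 and Atg5f/f;Vav in row 2, and the row cannot be told apart from the genotype. Between 57.6 and 58.1% of probes were well above background on control and between 51.6 and 54.8% on Atg5f/f;Vav arrays. The single *Atg5* probe, on chromosome 10, was higher by 0.54 in Atg5f/f;Vav (SE 0.12, adjusted p = 0.0209 from limma, or 0.0727 and 0.0836 without control replicate 1 and 2), and whether it lies in the deleted part was not determined, so directions rest on the labels. The LSK label was checked against 10 markers such as *Kit*, *Ly6a* and *Ptprc*, all of which were well above background on all 6 arrays. Of these 10, 1 was called higher and 1 lower. *Ly6a*, which encodes the Sca-1 of the sort gate, rose by 1.57 (SE 0.15, adjusted p = 0.00623 from limma). *Meis1* fell by 0.78 (SE 0.25, adjusted p = 0.0484 from limma). The other 8 did not pass. Among them *Flt3* at -0.87, *Kit* at -0.38 and *Ptprc* at -0.34 were lower without overlap, and *Gata2* at 0.26 was higher without overlap. In bulk RNA, fewer cells of a type and less RNA per cell cannot be told apart.

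Of the 9 genes, 8 had a probe that could be tested, and *Igf2bp2* was the gene called by the probe that represents it, the brightest one tested. It was lower in Atg5f/f;Vav. This 1 gene lower and 0 genes higher of 8 stand beside 15.3% of all 20778 genes called lower and 18.7% called higher. Of the 8, 3 had an unadjusted p under 0.05 in limma, as did 15506 of all 32074 probes tested. None of the 8 passed the methods' t-test after adjustment, which called 0 of all probes. Counting every tested probe, 3 of 16 were lower and 1 higher, against 17.1% and 17.3% of all probes tested. For 8 of the 16 the groups did not overlap, against 55.4% of all probes tested. The median difference was -0.21 over the 16 probes and -0.06 over all probes. The shares called lower and without overlap are near the background, those called higher lie under it, and differences of the switch genes lay on both sides of 0. When only probes detected on all arrays set the 75th percentile, the median over all probes was -0.22.

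**Figure D1:**
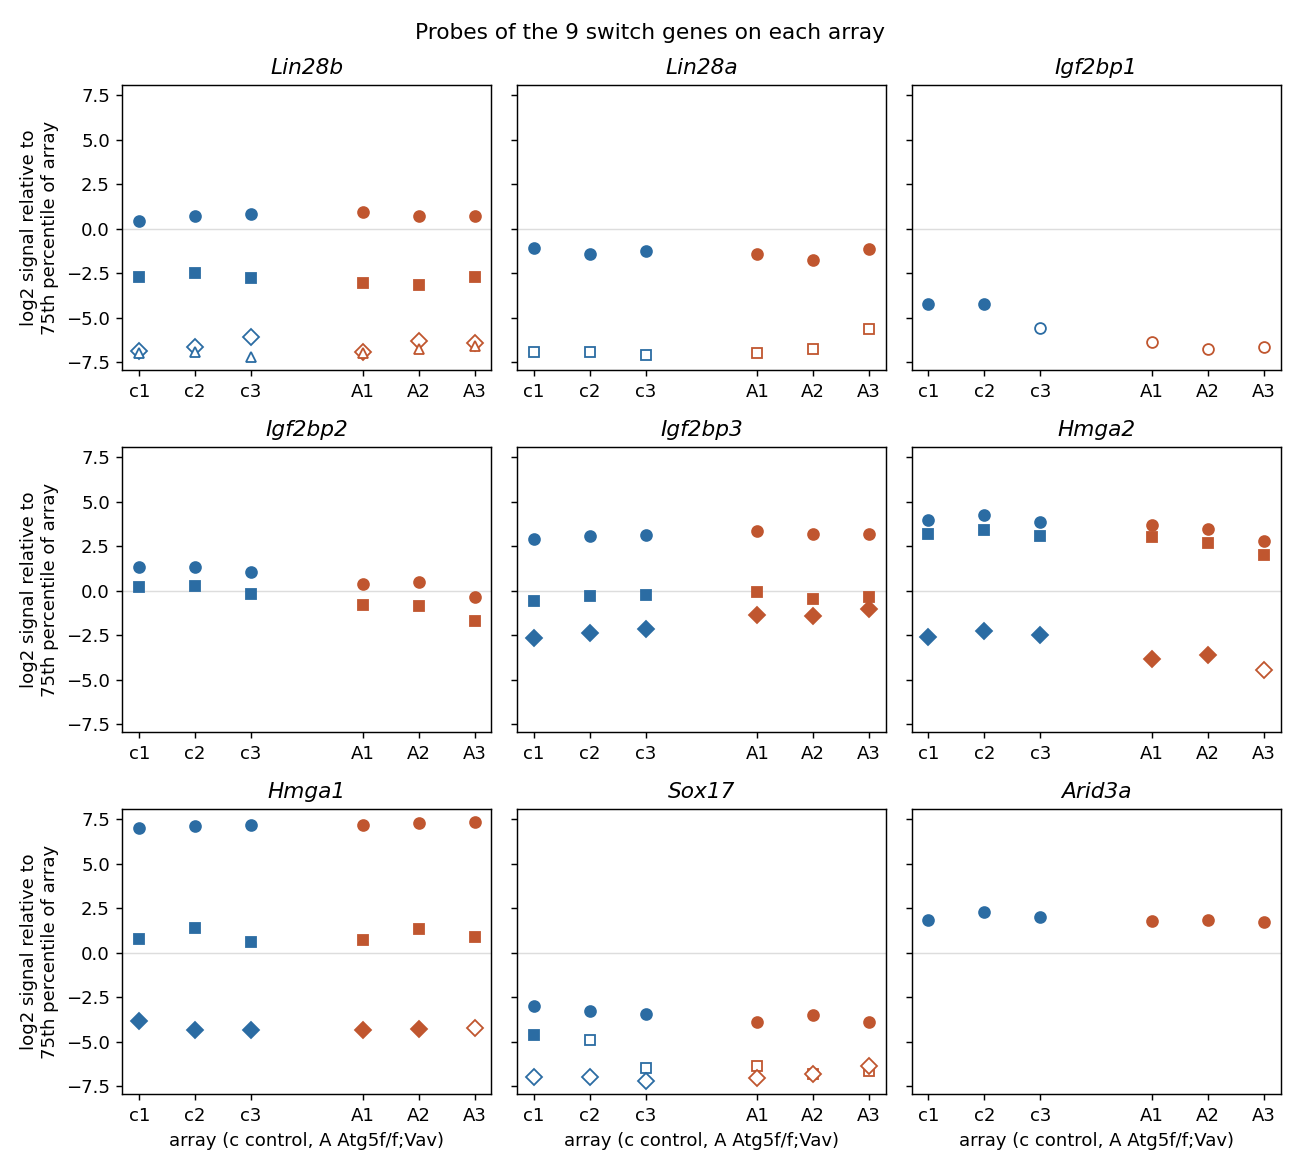
Log2 signal of every probe of the 9 genes (vertical axis, relative to the array's 75th percentile) on each array, control c1 to c3 in blue and Atg5f/f;Vav A1 to A3 in orange. Each symbol shape is 1 probe and open symbols are not well above background; both *Igf2bp2* probes are lower on every Atg5f/f;Vav array than on any control array, while the brightest probes of *Lin28b*, *Lin28a*, *Hmga1* and *Arid3a* overlap between groups.

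The *Lin28* pair, which acts on let-7 precursors, did not pass the test with all arrays. The *Lin28b* probe at base 5300, on chromosome 10 of mm9 from 45096468 to 45096527, read 0.43, 0.69 and 0.80 on control and 0.91, 0.73 and 0.72 on Atg5f/f;Vav arrays. The groups overlapped, and the difference was 0.15 with a 95% interval of -0.17 to 0.47 (adjusted p = 0.407 from limma). Its sign was not stable, at -0.01 when only probes detected on all arrays set the 75th percentile. The coding probe printed above, at 45140412 to 45140471, read -2.73, -2.51 and -2.79 against -3.07, -3.19 and -2.70. It gave a difference of -0.31 with an interval of -0.69 to 0.07 (adjusted p = 0.17 from limma), again with overlap. Without replicate 3 of Atg5f/f;Vav it passed, at -0.45 (adjusted p = 0.0432 from limma), and quantile normalisation gave -0.05. A further 2 *Lin28b* probes, one for a predicted transcript and one for a cDNA clone, were well above background on none of the 6 arrays.

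*Lin28a*, the paralogue that is typical of embryonic cells, was detected on all 6 arrays by its probe at base 3420, on chromosome 4 from 133559245 to 133559304. It read -1.09, -1.42 and -1.27 on control and -1.41, -1.76 and -1.16 on Atg5f/f;Vav arrays. The groups overlapped, with a difference of -0.18 and an interval of -0.60 to 0.24 (adjusted p = 0.449 from limma). The probe at base 1732 of the same transcript was well above background on no array, so detection of *Lin28a* rests on 1 probe of 2.

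*Igf2bp2*, a paralogue that also persists in adult tissues, fell. The probe at base 3661, on chromosome 16 from 22059260 to 22059319, read 1.33, 1.36 and 1.07 on control and 0.40, 0.51 and -0.37 on Atg5f/f;Vav arrays. Every Atg5f/f;Vav array lay under every control array, and replicate 3 lay lowest. Control arrays averaged 1.25 ± 0.15 and Atg5f/f;Vav arrays 0.18 ± 0.48 (SD, n = 3 each), a difference of -1.07 with an interval of -1.65 to -0.50 (SE 0.24, adjusted p = 0.0206 from limma), or 0.475 of the control level. The neighbouring probe at base 3339, from 22059582 to 22059641, read 0.19, 0.28 and -0.19 on control and -0.78, -0.89 and -1.70 on Atg5f/f;Vav arrays. It repeated the pattern, with a difference of -1.22 (SE 0.26, adjusted p = 0.0192 from limma), although it shares the transcript and the arrays with the first and is no independent sample. Without control replicate 1 or control replicate 2 the adjusted p of the first probe was 0.0743 or 0.0805 and that of the second 0.0718 or 0.078. Without replicate 3 of Atg5f/f;Vav the differences shrank to -0.80 and -0.93 (adjusted p = 0.015 and 0.0162 from limma). For groups that do not overlap, an exact permutation test over the 20 arrangements gives p = 0.1, the smallest that 3 arrays against 3 allow.

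*Igf2bp3*, which is largely restricted to fetal tissue, gave probes that disagreed. At base 2355, on chromosome 6 from 49037149 to 49037208, it read 2.91, 3.05 and 3.13 on control and 3.34, 3.20 and 3.16 on Atg5f/f;Vav arrays. All 3 Atg5f/f;Vav arrays lay just above the control arrays, yet the difference of 0.20 had an interval of -0.07 to 0.47 (adjusted p = 0.2 from limma), and quantile normalisation turned it to -0.07. The coding probe printed above, at 49057401 to 49057460, gave 0.09 with an interval of -0.28 to 0.45 (adjusted p = 0.68 from limma) and overlapped. The probe built on a cDNA clone, 80.8 kb upstream of the first at 49117912 to 49117971, did rise. It read -2.65, -2.39 and -2.17 on control and -1.35, -1.40 and -1.03 on Atg5f/f;Vav arrays, a difference of 1.14 with an interval of 0.75 to 1.54 (SE 0.17, adjusted p = 0.0138 from limma). The lower end of that interval lies above the upper ends of the other probes' intervals, 0.47 and 0.45, and the difference between probes was not tested. The rise had an adjusted p of 0.061 without control replicate 1 and 0.0667 without control replicate 2.

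*Igf2bp1*, the paralogue most restricted to fetal life, was near the detection limit and was not tested. Its only probe, on chromosome 11 from 95824102 to 95824161, read -4.23, -4.22 and -5.56 on control and -6.34, -6.73 and -6.64 on Atg5f/f;Vav arrays. Detection above background held for 2 of 3 control and 0 of 3 Atg5f/f;Vav arrays. The Atg5f/f;Vav values have no order there, since the lowest signal called above background on these arrays was -4.82 to -4.42. Against that limit no fold can be given.

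*Hmga2* was lower on all Atg5f/f;Vav arrays by each of 3 probes, and the test called 1 of them. The probe at base 2457, on chromosome 10 from 119799990 to 119800049, read 3.96, 4.22 and 3.87 on control and 3.71, 3.48 and 2.79 on Atg5f/f;Vav arrays. Its difference of -0.69 had an interval of -1.27 to -0.10 (SE 0.24, adjusted p = 0.0672 from limma), and replicate 3 of Atg5f/f;Vav stood lowest. The probe with the let-7 match, from 119798739 to 119798798, read 3.18, 3.43 and 3.08 against 3.01, 2.66 and 1.99. It gave -0.68 (SE 0.26, adjusted p = 0.0803 from limma), close to the first probe, which lies 1.25 kb away in the same transcript. Both differences shrank without replicate 3 of Atg5f/f;Vav, to -0.42 and -0.40 (adjusted p = 0.0781 and 0.109 from limma). Without replicate 1 of Atg5f/f;Vav both passed (adjusted p = 0.0371 and 0.0329 from limma).

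The third *Hmga2* probe was built on an Ensembl transcript and lies 107 kb upstream of the first, from 119907346 to 119907405. It read -2.58, -2.29 and -2.49 on control and -3.86, -3.62 and -4.43 on Atg5f/f;Vav arrays, where it was well above background on 2 of 3. The difference was -1.52 with an interval of -2.03 to -1.002 (SE 0.22, adjusted p = 0.0136 from limma). Under normexp background correction it was -0.80, and without control replicate 1 or control replicate 2 its adjusted p was 0.0566 or 0.0666. Its interval overlaps those of the other *Hmga2* probes, the first of which reaches -1.27.

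*Hmga1*, the paralogue that is active in most dividing cells, did not pass the test. The probe at base 1929, on chromosome 17 from 27700543 to 27700602, read 7.02, 7.13 and 7.17 on control and 7.17, 7.30 and 7.34 on Atg5f/f;Vav arrays. The difference of 0.16 had an interval of -0.10 to 0.42 (adjusted p = 0.273 from limma), and quantile normalisation gave -0.03. Probes at bases 248 and 364 of other *Hmga1* transcripts gave 0.06 and -0.09 (adjusted p = 0.86 and 0.702 from limma), both with overlap. A probe annotated to the pseudogene *Hmga2-ps1* rose by 1.04 (SE 0.15, adjusted p = 0.0135 from limma). No probe of another gene shared 25 bases with a probe of the 9 genes, on either strand, which does not test for hybridisation to transcripts that have no probe.

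*Sox17* was lower on every Atg5f/f;Vav array without passing the test. The probe at base 3130, on chromosome 1 from 4481890 to 4481949, read -3.01, -3.26 and -3.47 on control and -3.88, -3.50 and -3.89 on Atg5f/f;Vav arrays. The nearest arrays, at -3.47 and -3.50, almost touched, and the difference was -0.51 with an interval of -0.91 to -0.11 (SE 0.17, adjusted p = 0.0548 from limma). Quantile normalisation reduced it to -0.20, and without replicate 2 of Atg5f/f;Vav it passed (adjusted p = 0.0459 from limma). Of the other *Sox17* probes, the one across an exon junction, from 4482700 to 4483190, was well above background on no array. The one for a cDNA clone lies on the opposite strand, from 4487611 to 4487670, and was above background on 1 control array. *Arid3a*, on chromosome 10 from 79417377 to 79417436, read 1.85, 2.28 and 1.98 on control and 1.80, 1.85 and 1.74 on Atg5f/f;Vav arrays. The groups overlapped, with control replicate 1 and Atg5f/f;Vav replicate 2 both near 1.85, and the difference was -0.24 with an interval of -0.57 to 0.09 (adjusted p = 0.206 from limma).

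**Figure D2:**
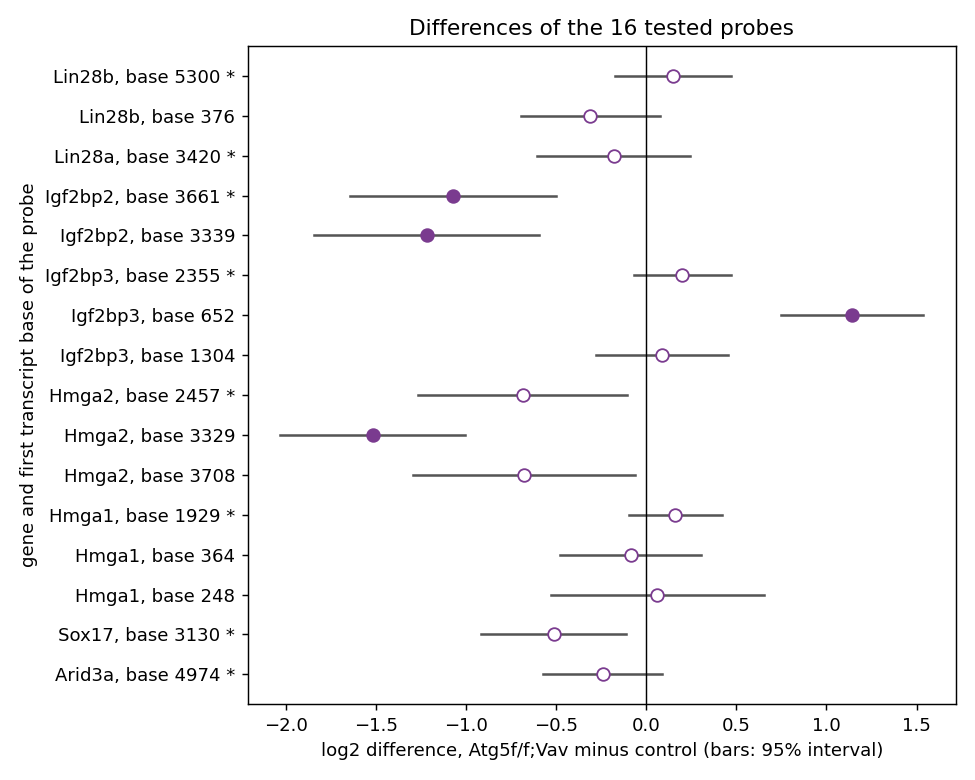
Log2 difference between Atg5f/f;Vav and control (horizontal axis) of the 16 tested probes, each named by gene and first transcript base, with an asterisk on the probe that represents the gene. Bars are 95% intervals from limma and filled points passed the adjusted test; the filled points are both *Igf2bp2* probes at -1.07 and -1.22, the *Hmga2* probe at -1.52 and the *Igf2bp3* probe of a cDNA clone at 1.14.

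The rest of the let-7 pathway was read from lists of 18 genes of let-7 processing and turnover and 22 other let-7 targets, all tested. In the processing list 4 genes rose, 2 fell and 12 did not pass the test, with a median difference of 0.27 against -0.03 over all genes. Of all 20778 genes, 18.7% were called higher and 15.3% lower, which is the background for this and every later list. *Xpo5*, the export receptor for microRNA precursors, rose by 0.78 (SE 0.16, adjusted p = 0.0178 from limma), from 0.17, 0.29 and 0.30 to 0.78, 0.97 and 1.34. *Khsrp*, whose protein promotes let-7 maturation, and *Drosha*, the nuclear processing enzyme, rose by 0.50 and 0.49. The Argonaute genes *Ago4* and *Ago1* fell by 0.84 and 0.60 on the log2 scale. *Dicer1*, the cytoplasmic processing enzyme, gave -0.20 (adjusted p = 0.293 from limma). Without control replicate 3, and also without replicate 2 of Atg5f/f;Vav, 2 genes of this list were called in place of 6.

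Among the other let-7 targets 6 rose, 3 fell and 13 did not pass, with a median of 0.19. *Zbtb16*, a transcription factor gene of innate-like lymphocytes and stem cells, rose by 1.05 (SE 0.16, adjusted p = 0.0141 from limma), from -2.56, -2.28 and -2.14 to -1.35, -1.42 and -1.07. *Cdc34*, a ubiquitin-conjugating enzyme gene of the cell cycle, rose by 1.02. *Insr*, the insulin receptor gene, fell by 0.86 and *Arid3b*, a paralogue of *Arid3a*, by 0.50. *Thbs1*, a secreted matrix glycoprotein gene, was well above background on all control arrays and no Atg5f/f;Vav array. It was at least 2.1-fold lower, set against the lowest signal called above background. It counts among the 3 that fell, but it passed the detection filter through the control arrays alone, so that its adjusted p of 0.0196 from limma is no support. Called genes of this list lay on both sides. Let-7 was not measured, and whether it had a part in these differences was not tested.

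A long RNA that hosts let-7c and is not part of any list, *Mir99ahg*, was read for comparison and has 5 probes on chromosome 16 between 77363866 and 77598283. All 5 fell, by 1.29 to 1.78 on the log2 scale (adjusted p = 0.0173 to 0.0389 from limma). The dimmest was above background on 2 of 3 Atg5f/f;Vav arrays. It read -4.90 on replicate 3, under the detection limit, so the size of its fall is uncertain. Its brightest probe read 0.93, 0.75 and 0.34 on control and -0.23, -0.43 and -1.98 on Atg5f/f;Vav arrays. The groups did not overlap and replicate 3 of Atg5f/f;Vav was again lowest. All 5 had an adjusted p between 0.0678 and 0.116 without control replicate 1 or control replicate 2. With any other array left out, 1 of the 5 always passed (adjusted p at most 0.0381) and the others reached 0.0559 to 0.072. Mature let-7c was not measured, so whether it moved with *Mir99ahg* is not known.

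Other regulators of the fetal-to-adult transition showed 2 genes higher, 6 lower and 10 not called among 18 tested, with a median of -0.50, or -0.37 with *Igf2* set at its bound. *Mecom*, a transcription factor gene needed by long-term stem cells, read -0.63, -0.86 and -1.14 on control and -2.29, -2.15 and -3.43 on Atg5f/f;Vav arrays. It fell by 1.75 (SE 0.34, adjusted p = 0.0168 from limma). *Hlf*, another stem cell transcription factor gene, fell by 1.65 (SE 0.33, adjusted p = 0.0172 from limma), from 3.74, 3.71 and 3.46 to 2.36, 2.42 and 1.17. *H19*, an imprinted non-coding RNA gene active in fetal tissue and in quiescent stem cells, read 0.72, 1.21 and 0.90 on control and -0.24, -0.21 and -1.53 on Atg5f/f;Vav arrays and fell by 1.61 (SE 0.36, adjusted p = 0.0207 from limma). The other 3 lower genes, named after their values were seen, were *Plag1*, *Mllt3* and *Igf2*. *Plag1* fell by 1.03 and *Mllt3* by 0.92. *Igf2*, the fetal growth factor gene whose mRNA gave the Igf2bp proteins their name, was above background on all control and no Atg5f/f;Vav array and was at least 1.4-fold lower. It too passed the filter through the control arrays alone, and its adjusted p of 0.0189 from limma is no support. *Cebpa*, a myeloid transcription factor gene that restrains stem cell division after birth, rose by 0.91 and *Suz12*, a Polycomb subunit gene, by 0.38.

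**Figure D3:**
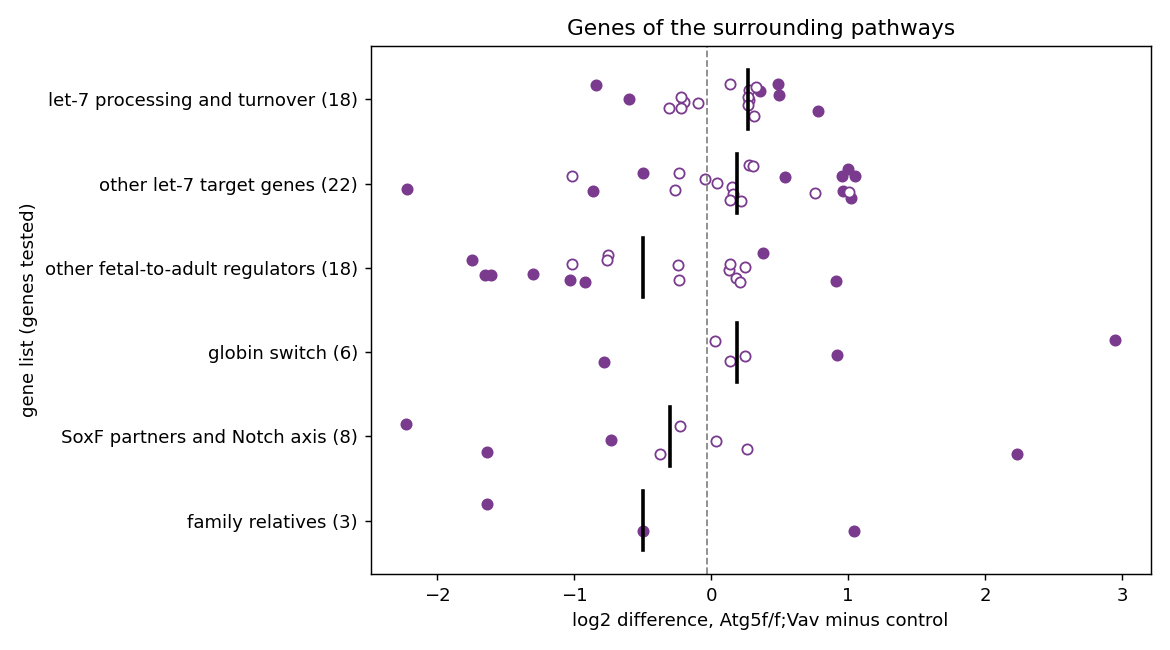
Log2 difference between Atg5f/f;Vav and control (horizontal axis) of each tested gene in 6 lists, with the number tested in brackets. Filled points passed the adjusted test in limma, black bars are list medians and the dashed line is the median of all genes at -0.03; the list of fetal-to-adult regulators has 6 filled points on the lower side and 2 on the higher side.

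Globin genes switch from embryonic to adult forms in erythroid cells. The embryonic *Hbb-y* and *Hba-x* were well above background on no array. *Hbb-bh1* read -4.93, -5.04 and -4.46 on control arrays, where it was above background on 1, and -3.83, -3.76 and -4.09 on Atg5f/f;Vav arrays, where it was above background on all. It counts as called higher, although the control arrays alone would not have taken it past the filter and lay near the detection limit. *Klf1*, the erythroid transcription factor gene, rose by 2.95 (SE 0.53, adjusted p = 0.0159 from limma) and *Sox6* fell by 0.78, while the other 3 of 6 tested genes did not pass. The adult globin genes *Hba-a1* and *Hbb-b1*, from the erythroid marker list, are named after their values were seen. They fell by 2.26 and 1.92 (adjusted p = 0.0136 and 0.017 from limma). In the list of SoxF and Notch genes around *Sox17*, 1 rose, 3 fell and 4 of 8 tested did not pass, with 2 called without control replicate 3. *Notch1* fell by 2.23 (SE 0.35, adjusted p = 0.0146 from limma), from 2.16, 2.72 and 1.97 to 0.23, 0.61 and -0.67. The SoxF gene *Sox18* fell by 1.64 and *Erg* by 0.73, and *Gfi1b* rose by 2.23. *Sox18* was above background on 2 of 3 Atg5f/f;Vav arrays and read -5.39 on replicate 3, under the detection limit, so the size of its fall is uncertain. *Sox7* was above background on 1 of 6 arrays and *Dll4* on none.

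Each gene counted once, 16 genes of the 6 lists were higher and 15 lower of 69 tested. Over all 20778 genes 18.7% were called higher and 15.3% lower. The 15 include *Thbs1* and *Igf2*, which passed the filter through the control arrays alone. The 16 include *Hbb-bh1*, which lay near the detection limit on control arrays. Without control replicate 1, and likewise without control replicate 2, limma called 0 of the 69, 29 of which had an unadjusted p under 0.05. Without any other single array 25 to 33 were called. Among the 16 probes of the switch genes 0 were called in either case, with 4 and 5 at an unadjusted p under 0.05. These fits called 330 and 251 probes of all 32074, against 11024 with all arrays. They had 11616 and 11455 of the 32074 at an unadjusted p under 0.05.

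Some genes listed as markers of other cells were also lower in Atg5f/f;Vav, while others were higher. Not every marker sum followed *Igf2bp2* and *Hmga2* from array to array. Of 10 stromal markers 7 were tested, of which 0 rose and 3 fell, and their summed linear signal was 10.3 to 41.0 on control and 6.87 to 9.65 on Atg5f/f;Vav arrays. The collagen gene *Col1a1* was above background on all control and no Atg5f/f;Vav array and at least 39-fold lower, and it read -4.14 on control replicate 1 against 3.23 and 2.95 on the other control arrays. It is among the 3 that fell but passed the detection filter through the control arrays alone, so its call is no support. *Col1a2*, another collagen gene, fell by 3.70 and *Sparc*, a matrix protein gene, by 2.59 (adjusted p = 0.0362 and 0.0297 from limma), while *Col3a1* and *Pdgfra* were above background on no array. The stromal sum was 10.3 on control replicate 1 and 41.0 on control replicate 2, where *Igf2bp2* read 1.33 and 1.36. Of 10 endothelial markers 8 were tested, of which 0 rose and 2 fell, with a summed signal of 96.8 to 113.6 on control and 58.2 to 105.5 on Atg5f/f;Vav arrays. This linear sum is mostly that of *Egfl7*, by far the brightest of the 10. *Egfl7* read 6.43, 6.70 and 6.68 on control and 6.62, 6.27 and 5.75 on Atg5f/f;Vav arrays. It overlapped between groups and did not pass (-0.39, adjusted p = 0.206 from limma), so the sum does not show the 10 markers moving together. *Kdr*, a VEGF receptor gene, fell by 1.42 and *Emcn*, an endothelial sialomucin gene, by 1.36 (adjusted p = 0.0138 and 0.0395 from limma). *Tie1* at -1.08 and *Esam* at -1.34 were lower without overlap and did not pass (adjusted p = 0.0501 and 0.0506 from limma). *Cdh5* and *Flt4* were above background on no array and 7 of the 10 on all arrays, and replicate 3 of Atg5f/f;Vav had the lowest sum. Of 10 erythroid markers 4 rose and 4 fell, and their summed signal was 236.3 to 525.4 on control and 94.1 to 146.4 on Atg5f/f;Vav arrays. The brightest of them, *Hba-a1*, weighs most in that sum. Of 10 neutrophil granule markers 3 rose and 6 fell, with a summed signal of 182.8 to 300.8 on control and 245.0 to 304.2 on Atg5f/f;Vav arrays. The 6, among them *Ltf*, *S100a8* and *S100a9*, fell by 1.21 to 1.38, and *Ctsg*, *Mpo* and *Prtn3*, genes of primary granules, rose by 1.91, 1.003 and 0.89. The part of the stromal, endothelial, erythroid and neutrophil signals in these results was not tested. Nor was it tested whether these signals came from other cells or from the LSK cells themselves.

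**Figure D4:**
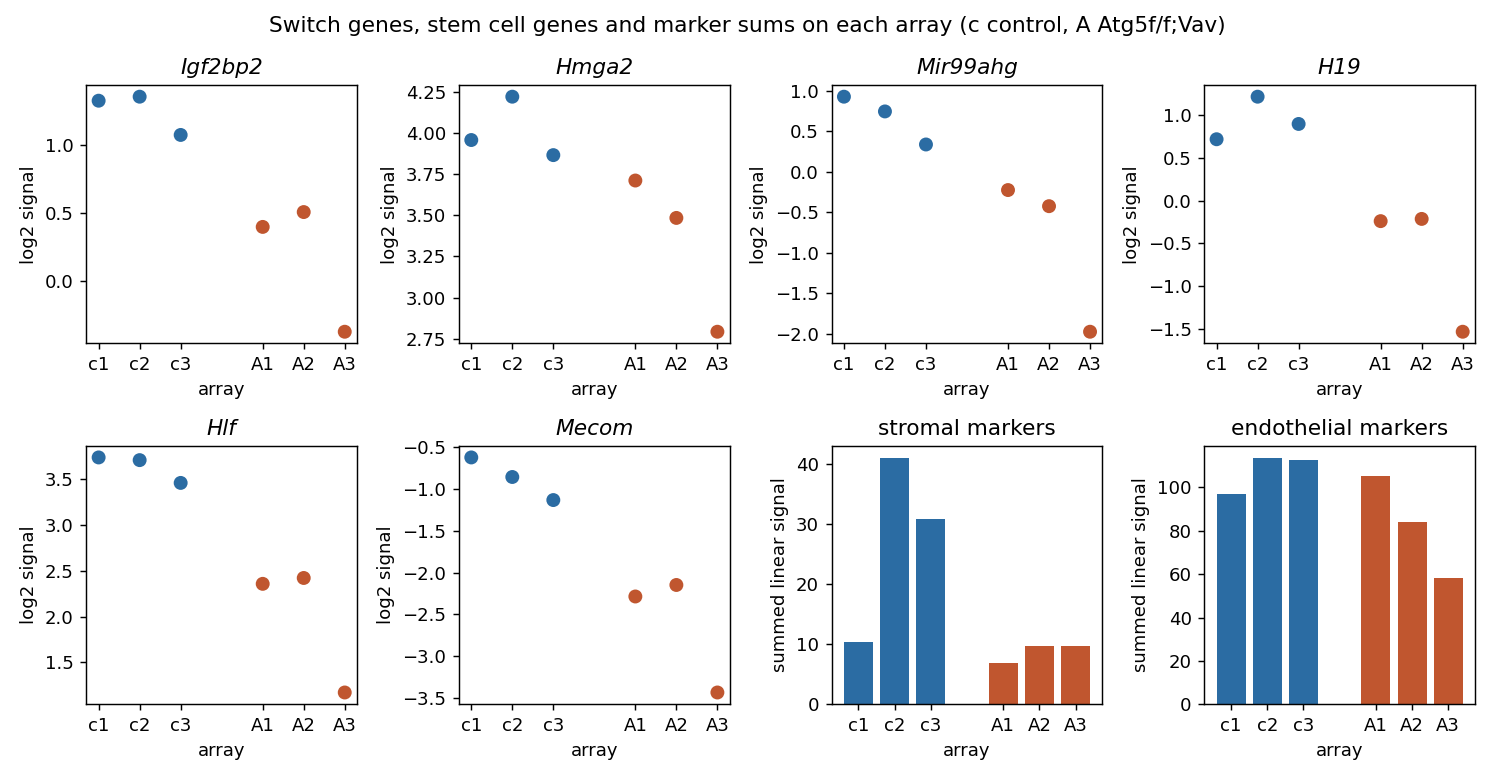
Log2 signal of *Igf2bp2*, *Hmga2*, *Mir99ahg*, *H19*, *Hlf* and *Mecom* (brightest probe of each, relative to the array's 75th percentile, axes not starting at 0) and summed linear signal of 10 stromal and 10 endothelial markers on each array, control in blue and Atg5f/f;Vav in orange. Replicate 3 of Atg5f/f;Vav (A3) is lowest for all 6 genes and for the endothelial sum, and the stromal sum is highest on control replicate 2 (c2), at 41.0. The endothelial sum is mostly the signal of *Egfl7*, the brightest of its markers.

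As a description, the genes whose log2 signal followed each switch gene most closely over the 6 arrays were sought among 18381 genes detected on all arrays. *Igf2bp2* was followed by *Wbscr27* and *Odf3b*, with Pearson's r of 0.9996 and 0.9994, and 1315 genes had r over 0.95. *Hmga2* was followed by *Tmem25* and *Fhl1*, with an r of 0.998 and 0.997, with 959 genes over 0.95. Far fewer genes passed 0.95 for *Lin28b* (12, led by *Morn2* with 0.99), *Lin28a* (5), *Arid3a* (18), *Igf2bp3* (57, with *Mgat4a* at 0.99) and *Hmga1* (76, led by *Zkscan5* with 0.99), and 190 did for *Sox17*. These points share 6 arrays in 2 groups, so a gene that separates the groups tends to correlate with every other that does.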

How the data were processed

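LSK cells of 3 control (Atg5w/w;Vav) and 3 Atg5f/f;Vav samples were sorted into TRIzol, and RNA was labelled with a low-input kit that primes from the poly(A) tail, so that signal depends on a probe's distance from the transcript end. The authors' scanner files hold the intensity of each spot, background-corrected by Agilent Feature Extraction 12.0.3.1, with probes placed on mm9. The deposited table holds the same values as a linear signal, divided by each array's 75th percentile over all spots. From the intensities, log2 values were taken minus the 75th percentile over 59305 non-control spots. Outlier-flagged spots, 64 to 81 on an array, were removed, and saturation was flagged for none. The 75th percentile was 620.3 to 881.4 intensity units. Arrays give no count of depth, and the number of arrays sets the precision. Probes were tested 2-sided with lmFit and eBayes of limma 3.58.1 (R 4.3.3), and the steps were tested on simulated data. Groups follow the sample titles.

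A gene is represented by its tested probe with the highest mean. The 9 genes and the lists were chosen with earlier results of these data known. Named genes are the 9, at most 3 higher and 3 lower of each list, and the 2 nearest patterns of each gene (unnamed transcripts left out); others are marked in the text. Lists of lineage, macrophage, megakaryocyte, B cell and T cell markers had 1, 0, 3, 1 and 0 genes higher and 0, 1, 3, 0 and 0 lower. Alternatives were normexp (offset 50), quantile normalisation, scaling on probes detected on all 6 arrays alone, no filter, a filter on all 6 arrays, the deposited values, outlier spots kept, an eBayes intensity trend, the methods' t-test (Student's, unpaired), a replicate block, leaving out each array and the mean of a gene's probes. Flow cytometry and transplantation were not analysed here.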

Additional observations from a re-analysis of the deposited data

How the results depend on the processing

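The number of probes called, 11024, was 4538 with no filter on dim probes (more probes tested), 7018 with the mean of a gene's probes (genes tested in place of probes) and 0 with the methods' t-test after adjustment, which had 13539 at an unadjusted p under 0.05. It ranged from 251 to 10304 with 1 array left out. The number of switch genes called, 1, was 2 under normexp correction, quantile normalisation, the filter on all 6 arrays and the eBayes trend, 3 when only probes detected on all arrays set the 75th percentile and with the mean of a gene's probes, and 0 with the adjusted t-test, where 1 gene had an unadjusted p under 0.05. With 1 array left out it ranged from 0 to 2. *Igf2bp2* was called in 9 of 11 other settings, the exceptions being no filter (adjusted p = 0.0518) and the adjusted t-test (0.0761). *Hmga2* or *Sox17* made up the added calls, apart from *Igf2bp3* in the mean of its probes, and *Igf2bp1* was the gene called with no filter. That call is no support, since the *Igf2bp1* probe was above background on 2 of 3 control and 0 of 3 Atg5f/f;Vav arrays. Among the switch genes the sign turned for *Lin28b* (-0.01 when only probes detected on all arrays set the 75th percentile and -0.08 with the mean of its probes), and under quantile normalisation for *Hmga1* (-0.03) and for *Igf2bp3* (-0.07), which was called in the mean of its probes. The genes called in the 6 lists, 31, were 18 with no filter and 0 with the adjusted t-test, with 39 at an unadjusted p under 0.05, and ranged from 0 to 33 with 1 array left out. Same-numbered samples did not deviate together (correlations of -0.07, 0.19 and 0.11), and with the replicate block 10173 probes, 1 switch gene and 30 list genes were called. The cause of these changes was not tested where no construction is named. The lowest signal called above background was -5.001 to -4.77 on control and -4.82 to -4.42 on Atg5f/f;Vav arrays, which limits *Igf2bp1* and the dim probes of *Sox17* and *Hmga2*.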
